A study of Mus musculus with 10 samples.

Results

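FBB1.5 is a subclone of a mouse erythroleukemia (MEL) line, that is, of cultured red cell precursors transformed by a retrovirus. It was set against the line it was derived from. The parental cells carry BirA, a bacterial biotin ligase. FBB1.5 carries BirA too, and in addition stably expresses BCL11A with a FLAG-Biotag, a short peptide tag that BirA can biotinylate. Total RNA of each line was measured on 2 arrays of the Affymetrix Mouse Genome 430 2.0 platform. These 4 arrays are those labelled as parental or as FBB1.5 among 10 arrays of 5 lines, the others being the tagged subclones FBB1.7, FBB1.10 and FBB1.11 with 2 arrays each. FBB1.5 is a single clone, so what the tagged protein does and what sets this clone apart from the bulk of the parental cells cannot be told apart in this comparison. For part of the results, FBB1.5 was therefore also set against the mean of the other 3 subclones, which carry the same kind of construct. That second contrast uses no parental array but shares the FBB1.5 arrays with the first.

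BCL11A is a zinc finger repressor known for silencing embryonic and fetal globin genes in red cell precursors, where it works together with chromatin complexes such as NuRD. MEL cells resemble an arrested proerythroblast, a cell that has committed to the red lineage but has not yet filled with haemoglobin. Such a cell divides fast, imports iron and amino acids, makes its own sterols and draws on both glycolysis and mitochondria.

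Values are probe set intensities, a linear measure of brightness. Differences are given on the scale log2(intensity + 16), which understates the change of dim genes, with the standard error of the fit. Of 25061 probe sets tested with limma, 507 passed an adjusted p of 0.05 in FBB1.5 against parental (2.02%), of which 323 were higher (1.29%) and 184 lower (0.734%). With one probe set per gene, 173 of 12502 genes were higher (1.38%) and 124 lower (0.992%), or 2.38% in either direction. In all 297 of these genes the 2 lines' arrays did not overlap. Among all tested genes, both FBB1.5 arrays lay above both parental arrays in 23.2% and below both in 19.5%. With 2 arrays per line, genes that pass will mostly show no overlap, so this adds no separate support. In the second contrast 947 probe sets were higher (3.78%) and 605 lower (2.41%). Of genes, 4.23% were higher and 2.51% lower, or 6.74% in either direction. The gene shares of the 2 contrasts are the background for the list counts below. Median intensities of the arrays were close, at 29.6 to 31.6. Across probe sets, r was 0.981 between the parental arrays and 0.9835 between the FBB1.5 arrays. Between the 2 lines it ran from 0.973 to 0.982, so the parental arrays were no closer to each other than parental 1 was to FBB1.5 1. On the array, control probes at either end of the actin message give a ratio that rises where RNA is degraded. It was 1.80 on parental 2 and 1.47 on FBB1.5 1, against 1.06 to 1.22 on the other 8 arrays. Without both of those arrays 353 probe sets passed, and with the ratio as a covariate 523 passed, 360 higher and 163 lower. Without parental 1 the count was 810, without FBB1.5 1 it was 275 and without FBB1.5 2 it was 184. Centring each array on its median turned the split from 323 higher and 184 lower to 271 and 222, and quantile normalization turned it to 294 and 256. When the variance was not allowed to follow intensity, 22 passed. Whether a line's 2 arrays stand for separate cultures is not stated, so every p-value here measures only the spread between these arrays.

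Both lines carried the markers of the red lineage. Of 11 erythroid markers 9 had a probe set, and 8 of these lay above the table median of 30.5, used here as the background level, on all 4 arrays. Gata1, the master regulator of the lineage, read 2163 and 2339 on the parental arrays and 2115 and 1993 on the FBB1.5 arrays. Slc4a1, the band 3 anion exchanger of mature red cells, lay at or below the background level on all 4. The summed erythroid marker intensity was 9878 and 11095 in parental cells and 11469 and 12455 in FBB1.5. The T and NK cell markers summed to 180 to 238 over the 4 arrays and the B cell markers to 139 to 192. Of those with a probe set, 1 of 6 (Zap70) and 2 of 5 (Cd79a and Pax5) lay above background on all 4 arrays. Cd4 and Ms4a1 lay at or below it throughout. Megakaryocyte markers summed to 551 to 644, with 5 of 6 above background on all 4 arrays. Granulocyte and macrophage markers summed to 452 to 528, with 4 of 8 above it. Mast cell markers summed to 6571 and 5443 in parental cells and 6300.5 and 4968 in FBB1.5, most of it the chymase Mcpt2. Of 9 such markers 5 lay above background on all 4 arrays, namely Mcpt2, Cpa3, Cma1, Tpsb2 and the receptor gene Kit. The receptor genes Fcer1a and Ms4a2 were among 3 at or below background on all 4 arrays. The part of these markers in the results was not tested.

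The measured Bcl11a transcript did not pass on its brighter probe sets. The brightest over the 10 arrays read 307 and 347 on the parental arrays and 283 and 332 on the FBB1.5 arrays, which overlap. The next brightest read 309.5 and 350.0 against 352.7 and 354.9 (adjusted p = 0.741). Of 6 tested Bcl11a probe sets 1 was higher, with 39.7 and 35.9 in parental cells and 62.1 and 95.8 in FBB1.5 (log2 difference 0.80 ± 0.19, adjusted p = 0.041), a call lost without either parental array or FBB1.5 2 (up to 0.32). On the same probe set FBB1.5 lay below the other 3 subclones, by -0.74. Which probe sets can detect the message of the transgene was not analysed here.

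Outside chromosome 14, the largest rise in FBB1.5 was that of Cwh43, a chromosome 5 gene that remodels the lipid of GPI membrane anchors. It read 24.8 and 19 in parental cells, at or below background, and 147 and 129 in FBB1.5, which is at least 4.51-fold higher. Its level in the other 3 subclones was 17 to 30, so FBB1.5 stood apart from every other array of the series (adjusted p = 2.46e-06 against the other 3). Igfbp4, a secreted protein that binds insulin-like growth factors, read 599 and 673 in parental cells and 1229 and 1037 in FBB1.5. The log2 difference was 0.81 ± 0.11 (adjusted p = 0.00158), and 5 of its 6 tested probe sets were called higher. The other 3 subclones read 403 to 641, and FBB1.5 exceeded their mean by 1.06 ± 0.09.

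Another 5 high genes had calls that did not rest on single arrays. Rheb, a chromosome 5 gene for the small GTPase that switches on mTORC1, rose from 1155 and 1149 to 1866 and 1900.0, with a log2 difference of 0.70 ± 0.07 (adjusted p = 0.000152). Neither pair of arrays came near the other. Mgst3, a membrane glutathione transferase, rose from 183 and 176 to 304 and 303, and Cst7, an inhibitor of lysosomal cathepsins, from 119 and 140.0 to 221 and 238. Pus7, a pseudouridine synthase encoded on chromosome 5, rose from 687 and 746 to 1075 and 1228, and Nxpe4 from 100.5 and 97.4 to 186 and 176. In Mgst3 the other 3 subclones read 232 to 315, and FBB1.5 did not pass against them (adjusted p = 0.284). These 5 genes held their call without each of the 4 arrays in turn.

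For a further group of high genes, of which Smarcd3 and Gtf3c2 lie on chromosome 5, the call rested on single arrays. Dusp7, a phosphatase that inactivates ERK, read 56.3 and 14.2 in parental cells and 119 and 229 in FBB1.5, at least 3.99-fold higher (1 parental array was above background), a call that was gone without FBB1.5 2 (adjusted p = 0.114). The other 3 subclones read 93.5 to 191 for Dusp7, so against them FBB1.5 did not pass (adjusted p = 0.558). Spns2, an exporter of the lipid messenger sphingosine 1-phosphate, went from 116 and 113 to 211 and 197, lost without FBB1.5 1 (adjusted p = 0.059). Smarcd3, a SWI/SNF chromatin remodelling subunit, went from 119 and 107 to 224 and 160.2, lost without parental 2 or FBB1.5 1 (up to 0.174). Agtr1a, an angiotensin II receptor, went from 103 and 86.2 to 169 and 153 (up to 0.088), and Ncs1, a neuronal calcium sensor, from 87.9 and 62.9 to 122.8 and 143 (up to 0.237), both lost without parental 2 or either FBB1.5 array. Gtf3c2, a subunit of the RNA polymerase III factor TFIIIC, went from 281 and 381 to 457 and 539 and was no longer called without parental 1 or either FBB1.5 array (up to 0.267).

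Among the genes that fell and whose brighter line had a mean intensity of at least 100, a pair from chromosome 1 led. Ttll4, an enzyme that adds glutamate chains to tubulin and other proteins, fell from 349.9 and 389 to 167 and 124 (log2 difference -1.26 ± 0.15, adjusted p = 0.000522), called on 1 of its 3 probe sets. E330020D12Rik went from 264 and 307 to 86.1 and 144 (-1.23 ± 0.19, adjusted p = 0.00288). Thy1, a GPI-anchored surface glycoprotein of thymocytes and stem cells, fell from 609 and 692 to 374 and 287. The other 3 subclones read 824 to 962 for Thy1, above the parental arrays, and FBB1.5 lay -1.38 ± 0.09 from them (adjusted p = 1.24e-06) and -0.95 ± 0.11 from the parental line.

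Genes of several cellular compartments lay further down the list. Tmem38b, a potassium channel of the endoplasmic reticulum, fell from 516 and 600.4 to 270.3 and 261, on 1 of 4 probe sets, and Cog1, a Golgi tethering subunit, from 405 and 403 to 199 and 185, on 1 of 5. H2aj, a histone H2A variant, fell from 483 and 613 to 327 and 254. These 3 genes, with Ttll4, E330020D12Rik and Thy1, held their call without each of the 4 arrays. Cog1 did not pass against the other 3 subclones, which read 186 to 255, as low as FBB1.5.

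The remaining low genes each lost their call without at least 1 array. Ahnak2 went from 1572 and 1723 to 789.8 and 876, lost without FBB1.5 1 (adjusted p = 0.0633). Tspan8, a tetraspanin, went from 115 and 96.8 to 60.8 and 30.7 (0.111), Gkn3 from 194 and 264 to 124 and 114 (0.0567) and Bex4 from 178 and 175 to 110.0 and 78.2 (0.119), all lost without FBB1.5 2. Bex4 spread widely among the other 3 subclones, from 14 to 230.5. Zfp692 went from 308 and 417 to 183 and 204, lost without parental 2 or either FBB1.5 array (up to 0.143), while the other 3 subclones read 154 to 246 and FBB1.5 did not pass against them (adjusted p = 0.759). Plekhg4 went from 107 and 110.3 to 48.4 and 65.8, lost without any 1 of the 4 (up to 0.215). Fbxl19, an F-box protein that binds unmethylated CpG DNA, went from 723 and 819.8 to 551 and 522, lost without parental 2 or either FBB1.5 array (up to 0.13), while the other 3 subclones read 825 to 1418.

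**Figure D1:**
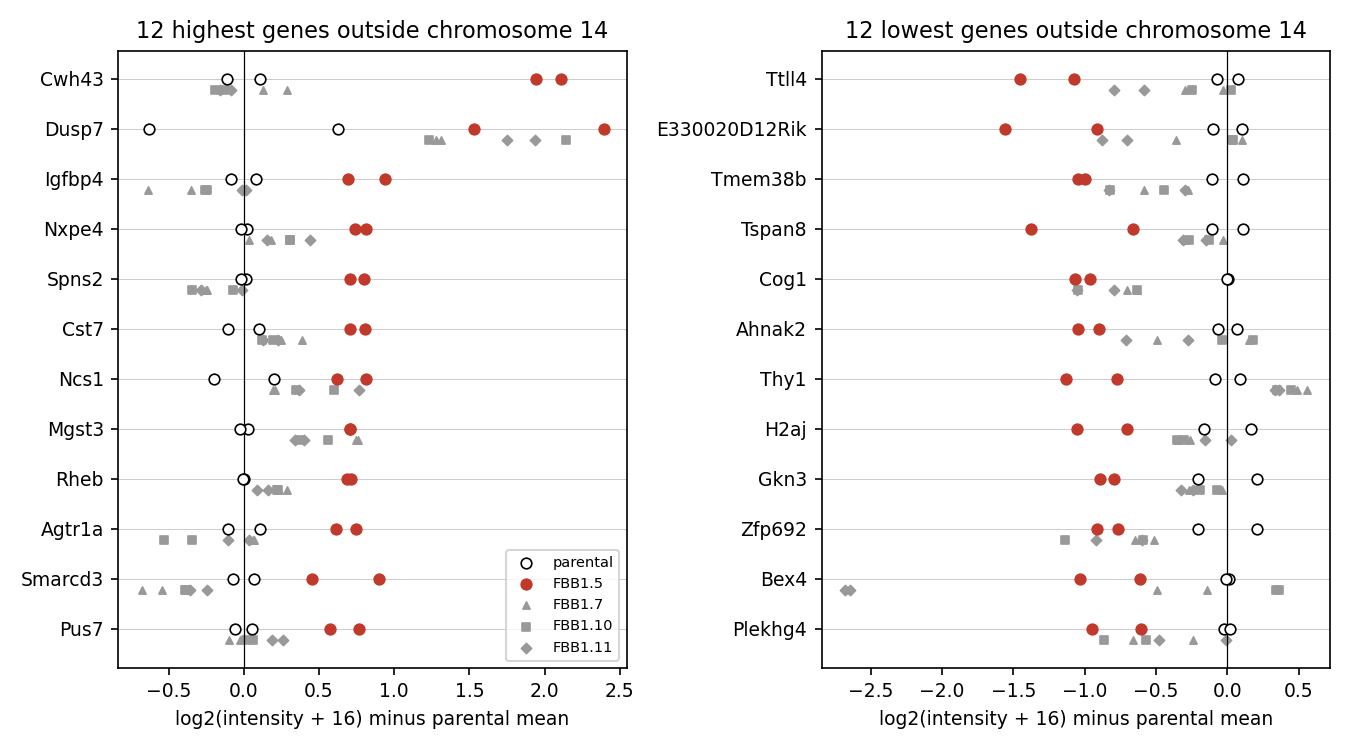
Difference of each array from the parental mean, on the scale log2(intensity + 16), for the 12 highest (left) and 12 lowest (right) genes outside chromosome 14 that passed the threshold and whose brighter line had a mean intensity of at least 100. Open circles are the 2 parental arrays, red circles the 2 FBB1.5 arrays and grey symbols, set slightly lower, the 2 arrays of each other subclone. For Cwh43 and Thy1 the red points lie apart from all others, while for Dusp7 and Cog1 the grey points lie near the red ones.

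The map of calls over the genome had a second high region beside the rise of chromosome 14. Chromosome 14 held 82 of the 173 higher genes, among 442 tested (18.6% higher), with a median log2 difference of 0.24. Chromosome 5 held 30 more, among 797 tested (3.76%), and 61 of the remaining 11263 genes elsewhere were higher (0.542%). Lower genes numbered 120 outside chromosome 14 (0.995%) and 115 outside chromosomes 14 and 5 (1.02%). The chromosome 5 genes were not spread evenly. The first 100 tested genes in RefSeq order, from Cdk6 to Tmem214, had 8 higher and 0 lower, with a median of 0.20. The next 100, from Agbl5 to Ldb2, had 11 higher and 0 lower, with a median of 0.22. The block that follows, from Qdpr to Ambn, had 4 higher, Cwh43 among them, and no gene was higher in the blocks from Utp3 to Nipsnap2. The last 197 genes, from Psph to Rfc3, had 7 higher and 1 lower with a median of 0.03. Against the other 3 subclones the first 2 blocks again had the highest medians of the chromosome, 0.18 and 0.20, with 23 and 29 genes higher. The whole of chromosome 5 had 82 higher in that contrast, 24 without FBB1.5 1 and 56 without FBB1.5 2. On chromosome 14 the rise ran over all 4 blocks, with medians of 0.18 to 0.32. These blocks were laid out after the chromosome counts had been seen, and no test was made on them. Without FBB1.5 1 or FBB1.5 2 the chromosome 5 count was 17 and 16 and the chromosome 14 count 35 and 49.

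**Figure D2:**
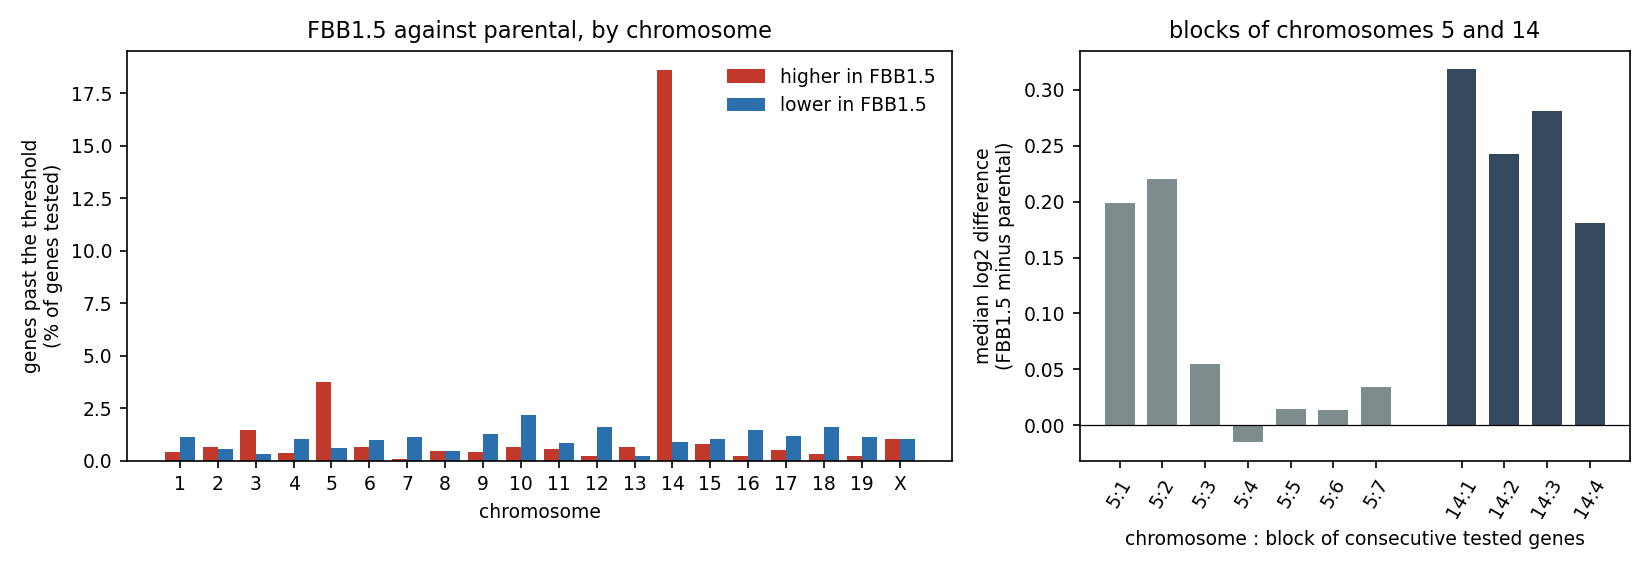
Left, percent of tested genes past the threshold on each chromosome in FBB1.5 against parental, higher (red) and lower (blue). Right, median log2 difference in blocks of about 100 consecutive tested genes along chromosomes 5 (grey) and 14 (dark). Chromosome 14 reaches 18.6% and chromosome 5 3.76% on the left, and on the right only the first 2 blocks of chromosome 5, at 0.20 and 0.22, lie in the range of chromosome 14.

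The higher chromosome 5 genes serve many unrelated processes. Mrfap1 rose from 1939 and 2019 to 2929 and 2944 (log2 difference 0.57 ± 0.07). Ctbp1, a transcriptional corepressor, rose from 1402 and 1437 to 2108 and 1925, and Gtf3a, the RNA polymerase III factor TFIIIA, from 626 and 630.1 to 928 and 982. Pomp, the chaperone that assembles the 20S proteasome, rose from 1171 and 1269 to 1824 and 1898, and Qdpr, which regenerates tetrahydrobiopterin, from 1521 and 1729 to 2345 and 2264. Hadhb, a subunit of the mitochondrial trifunctional protein of fatty acid oxidation, rose from 779 and 853 to 1264 and 1239. Its partner subunit Hadha, a neighbouring gene, went from 995 and 902 to 1267 and 1257, a call lost without parental 2 or either FBB1.5 array (up to 0.0788). Mrfap1, Ctbp1, Gtf3a, Pomp and Qdpr were chosen for this paragraph after their values were seen, among the 12 higher genes of chromosome 5 that held without each of the 4 arrays. On the same measure 31 of the 82 higher genes of chromosome 14 held, and elsewhere 6 of 61 higher and 8 of 115 lower genes.

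Several genes of chromosome 14 that rose serve the mitochondrion and central metabolism. Vdac2, a porin of the outer membrane, went from 1462 and 1359 to 2983 and 3040.3, the smallest adjusted p of all genes, at 5.3e-06. Timm23, the pore of the inner membrane import complex, went from 1059 and 1247 to 1729 and 1790.4. Slc25a30, a mitochondrial carrier, went from 545 and 543 to 816 and 795. Among 79 carriers, porins and import genes 5 passed upward and 0 downward, these 3 and, from chromosome 5, Tomm7 (1465 and 1499 to 2068 and 2059.9) and Grpel1 (728 and 772 to 1065 and 956), the last lost without parental 1 or FBB1.5 1. None of the 5 lay elsewhere, and the list's median difference was 0.04 against 0.01 for all genes. Outside the mitochondrion, Prmt5, the main symmetric arginine methyltransferase, went from 569.9 and 585 to 1087 and 1195, Nt5dc2 from 257 and 316 to 607 and 629 and Tsc22d1, a leucine zipper regulator, from 110.3 and 124 to 295 and 206, the last lost without FBB1.5 1 (adjusted p = 0.0561).

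The calls in the tricarboxylic acid cycle divided by chromosome. Of 27 genes 3 passed upward, all on chromosome 14, namely Pdhb, a pyruvate dehydrogenase subunit (889 and 979.9 to 1583 and 1523), Glud1, glutamate dehydrogenase (823 and 649 to 1183 and 1090.2), and Sucla2, a succinyl-CoA synthetase subunit (479 and 524 to 744 and 645). Cs, citrate synthase, fell from 1269 and 1453 to 971 and 803 (log2 difference -0.61 ± 0.10, adjusted p = 0.00414), called on 1 of its 3 tested probe sets. The other 3 subclones read 1077 to 1216 for Cs, between the 2 lines. Glud1 lost its call without FBB1.5 1 (0.0504), Sucla2 without parental 1 or FBB1.5 1 (up to 0.151) and Cs without FBB1.5 2 (0.0538).

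The pentose phosphate pathway, which makes ribose and NADPH, showed opposite changes in both of its carbon-transferring enzymes. Tkt, transketolase, on chromosome 14, rose from 2945 and 3038 to 4618 and 4566 (log2 difference 0.62 ± 0.05, adjusted p = 4.66e-05), with no overlap. Taldo1, transaldolase, went from 278 and 416 to 206 and 199 (-0.71 ± 0.14, adjusted p = 0.0195), a call lost without parental 2 or either FBB1.5 array (up to 0.124). In the other 3 subclones Taldo1 read 379 to 483, and FBB1.5 lay below their mean by -1.0 ± 0.12 (adjusted p = 0.000149). These were the 2 of 26 genes of pentose phosphate and red cell enzymes that passed against parental.

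The higher calls among proteasome genes were mostly on chromosome 14. Of 45 subunits and activators 5 passed upward and 1 downward, with a median of 0.10, and without either FBB1.5 array 3 passed upward. Psme1, an activator cap subunit, rose from 494 and 494 to 856 and 814. Psmb5, the chymotrypsin-like catalytic subunit, rose from 991 and 1075 to 1576 and 1642, and Psmd6, a lid subunit, from 573 and 621 to 908 and 849. Psmc6, an ATPase of the base, went from 829 and 845 to 1237 and 1243 and lost its call without either FBB1.5 array (up to 0.075). All 4 measured proteasome genes of chromosome 14 are among these. Elsewhere Psma2 passed in the same direction (941 and 975 to 1172 and 1255), lost without any 1 of the 4 arrays, and Psme4, an alternative activator, went from 545 and 593 to 382 and 396, lost without FBB1.5 1 (0.0518). In the second contrast the 4 chromosome 14 subunits were higher, but 8 of 45 were lower, among a background of 2.51% of genes lower and 4.23% higher in that contrast. The lower ones included Psmb3 (-0.43), Psmc4 (-0.41) and Psmd2 (-0.40), which did not pass against parental (0.09, -0.14 and -0.12). Without FBB1.5 1 or FBB1.5 2 that count of 8 was 2 and 3.

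In sterol synthesis 3 of 27 genes passed upward against parental and 0 downward, and 20 of the 27 differences were above 0. Without FBB1.5 2, 1 passed. Fdft1, squalene synthase, on chromosome 14, rose from 115 and 132 to 223 and 252 (log2 difference 0.86 ± 0.12, adjusted p = 0.00177). Msmo1, a sterol methyl oxidase, went from 161 and 179 to 233 and 314, and Fdps, farnesyl diphosphate synthase, from 509 and 453 to 605 and 857. Msmo1 was no longer called without parental 1 or FBB1.5 2 (up to 0.205) and Fdps without parental 2 or FBB1.5 2 (up to 0.323). Several members below the threshold had both FBB1.5 arrays above both parental arrays, as 23.2% of all tested genes did. Hmgcs1, HMG-CoA synthase, read 156 and 196 in parental cells and 228 and 266 in FBB1.5 (adjusted p = 0.0829), and Dhcr7, which completes cholesterol, 98.2 and 75.9 against 128 and 134 (adjusted p = 0.0818). Idi1 read 149.8 and 130.5 against 195 and 207 (0.0641), and Stard4, a sterol carrier, 405 and 457 against 545 and 636 (0.0603).

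Compared with the other 3 subclones, 10 of the 27 sterol genes were higher and 0 lower, beside 4.23% and 2.51% of all genes. The largest differences were those of Dhcr7 (0.75 ± 0.12, adjusted p = 0.00134), Hmgcs1 (0.70 ± 0.10, adjusted p = 0.000875) and Fdft1 (0.69 ± 0.10). Srebf2, the transcription factor that drives the pathway, read 305 and 252 in parental cells, 327 and 363 in FBB1.5 and 217 to 279 in the other 3 subclones, and passed against the latter (0.46 ± 0.10, adjusted p = 0.012). Insig1, the sterol sensor that holds this factor back, was higher against the other 3 as well (0.51 ± 0.11, adjusted p = 0.00956). Fdps was not (adjusted p = 0.817), as the other subclones read up to 965. The median over the list was 0.21 in this contrast and 0.13 against parental, beside 0.02 and 0.01 for all genes. Without FBB1.5 1 the count of 10 was 6, and without FBB1.5 2 it was 4.

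As these genes are known targets of the sterol regulatory element, their promoters were searched for TCACNCCAC, a common form of it, on both strands, in the window from 250 bases before to 50 after the annotated start (RefSeq, GRCm38.p6). It occurs in 1.24% of all 32851 promoters of that table, and in 1 of 29 promoters of the 21 sterol genes found there. Fdft1 and Fdps have no entry in it. The match is in Hmgcs1, whose promoter is shown because it carries the match (in capitals), from 250 bases before to 30 after the start, at chr13:119690101-119690380 on the plus strand.
Hmgcs1: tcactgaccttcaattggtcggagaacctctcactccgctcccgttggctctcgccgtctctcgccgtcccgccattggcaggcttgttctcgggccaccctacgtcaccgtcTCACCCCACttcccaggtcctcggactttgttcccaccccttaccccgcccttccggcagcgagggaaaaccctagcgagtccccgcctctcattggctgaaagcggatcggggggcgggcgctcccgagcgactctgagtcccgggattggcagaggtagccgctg
A match is a description of the letters, and no match says only that they are not in that window.

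**Figure D3:**
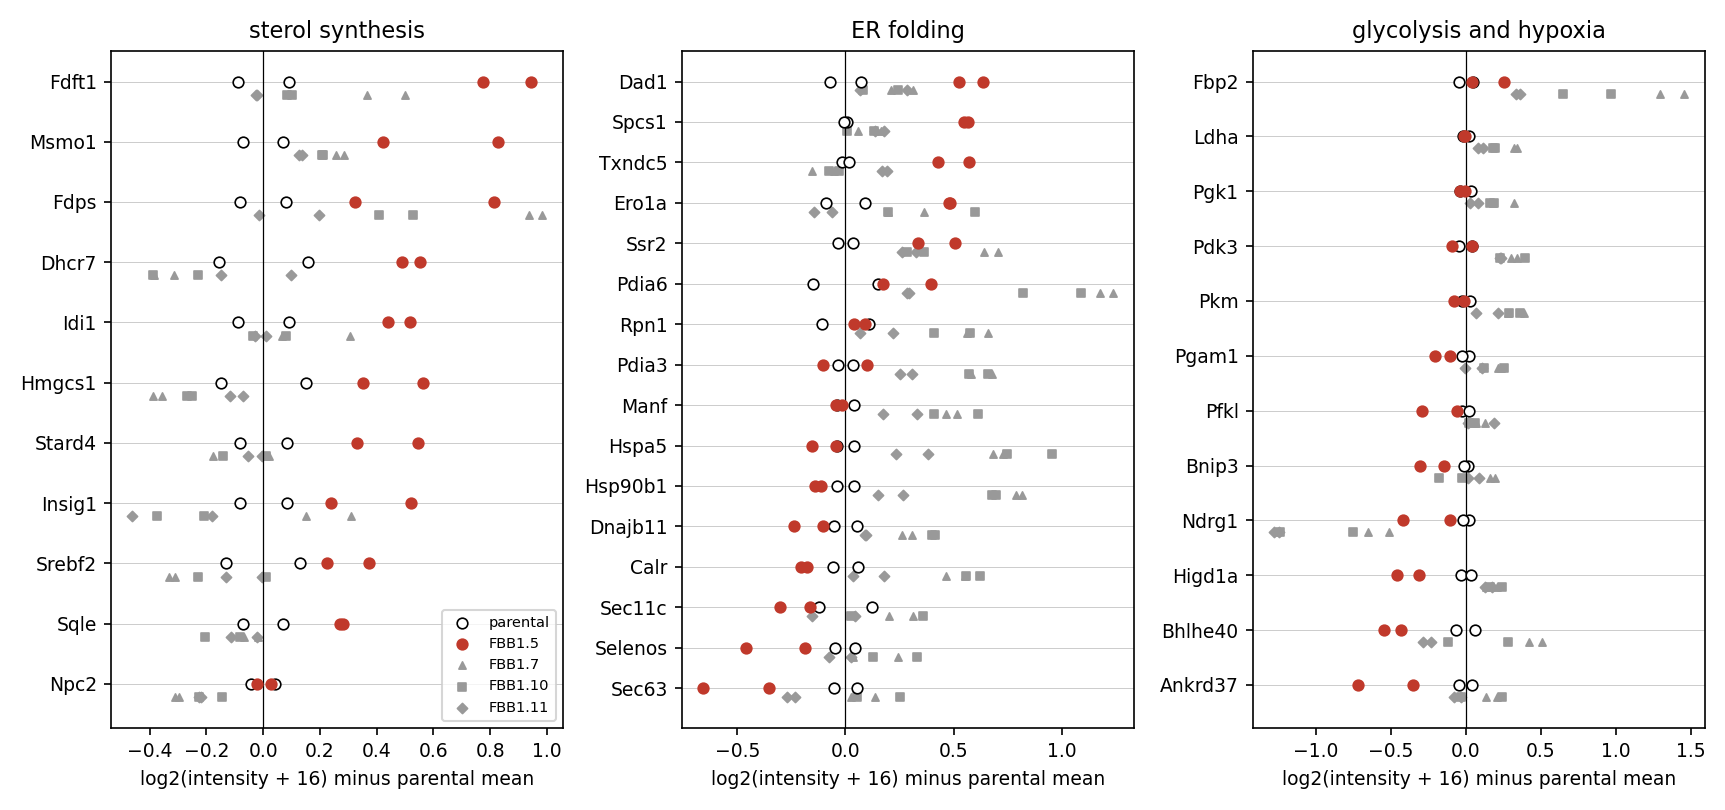
Difference of each array from the parental mean, on the scale log2(intensity + 16), for the members of 3 lists that passed in either contrast: sterol synthesis (left), endoplasmic reticulum (ER) folding (middle) and glycolysis and hypoxia (right). Open circles are the parental, red circles the FBB1.5 and grey symbols the other subclones' arrays. Red points of sterol genes lie to the right of the parental ones except for Npc2, while for the chaperones Hspa5, Hsp90b1 and Calr they lie at or below parental and the grey points lie to the right.

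The transcription factor ATF4 governs the response of cells to a lack of amino acids. Of 45 genes of this response 6 passed upward and 1 downward, with a median of 0.07, and 2 of the 6, Psph and Slc7a1, lie on chromosome 5. The counts were 4 and 3 with a median of 0.03 after quantile normalization, and 4 and 2 with a median of -0.001 without parental 1. Serine synthesis and the step from homocysteine to cysteine were represented by Psph (228 and 269.6 to 379 and 380.4), Psat1 (1876 and 1929.6 to 2312 and 2379) and Cth, cystathionine gamma-lyase (219.5 and 248 to 369 and 364). Import was represented by Slc7a1, the arginine and lysine carrier (867 and 934 to 1150.0 and 1477), and Slc1a4, a serine and alanine carrier (186 and 144 to 233 and 301). Atf4 itself read 1309.8 and 1653 in parental cells and 1975 and 2015 in FBB1.5 (log2 difference 0.43 ± 0.10, adjusted p = 0.0331). Ddit3, a pro-death factor of the same response, went down from 1816 and 2174 to 1459 and 1301 (-0.52 ± 0.11, adjusted p = 0.0196).

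None of these 7 calls held without each of the 4 arrays. Cth and Psph were lost without either FBB1.5 array (adjusted p up to 0.0564 and 0.0744), Slc7a1 without FBB1.5 2 (0.169), Slc1a4 and Ddit3 without parental 2 or FBB1.5 2 (0.265 and 0.184), and Atf4 and Psat1 without 3 or 4 of the arrays (0.185 and 0.178). Without FBB1.5 2 the list had 0 calls, and without FBB1.5 1 it had 2 up and 1 down. Other well known members had overlapping or close values. Asns, asparagine synthetase, read 2453 and 2650.3 against 2853 and 3041 (adjusted p = 0.144), and Trib3 555 and 629.5 against 602 and 642 (adjusted p = 0.804). Against the other 3 subclones Cth (0.44) and Slc7a1 (0.45) were higher and Ddit3 (-0.62) lower, while Psph, Psat1, Atf4 and Slc1a4 did not pass, with differences of -0.01, 0.05, 0.15 and 0.03. Over the whole list, 3 of 45 genes were higher and 5 lower in that contrast, beside 4.23% and 2.51% of all genes. The list's median there was -0.02.

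The motif TGATGNAAN, the composite site bound by ATF4 with C/EBP factors, occurs on either strand in 3.95% of promoters of the same table, and in 11 of 44 promoters of the 36 genes of this list found there. Of the 7 genes that passed, Slc1a4 alone has it. Its promoter is shown with the match in capitals, which lies on the reverse strand across the annotated start, at chr11:20332684-20332963 on the minus strand.
Slc1a4: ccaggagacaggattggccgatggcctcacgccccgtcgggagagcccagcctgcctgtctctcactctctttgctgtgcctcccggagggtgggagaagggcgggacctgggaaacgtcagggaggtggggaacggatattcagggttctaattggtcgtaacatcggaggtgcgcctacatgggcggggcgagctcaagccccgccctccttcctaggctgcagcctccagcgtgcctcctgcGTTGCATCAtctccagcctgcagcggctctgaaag
Cth has no entry in the table.

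Protein folding in the endoplasmic reticulum gave different pictures in the 2 contrasts. Against parental 5 of 60 genes passed upward and 0 downward, with a median of -0.01, and without FBB1.5 1 the counts were 2 and 1. After quantile normalization they were 4 and 2, with a median of -0.05. From chromosome 14 came Spcs1, a signal peptidase subunit (1115 and 1103 to 1629 and 1649), Dad1, a subunit of the glycosylation enzyme OST (494 and 546 to 815 and 754), and Ero1a, an oxidase that supplies disulfides (881 and 997 to 1315 and 1314). From elsewhere came Txndc5 (325 and 334 to 497 and 449) and Ssr2 (705 and 742 to 919 and 1034). Spcs1 held without each of the 4 arrays. Dad1 and Txndc5 were lost without FBB1.5 1 (0.0689 and 0.105), Ssr2 without FBB1.5 2 (0.169) and Ero1a without parental 1 or either FBB1.5 array (up to 0.186).

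The main chaperones did not pass against parental but were lower than in the other 3 subclones. Hspa5, the chaperone BiP, read 831 and 878 in parental cells, 827 and 765 in FBB1.5 and 1007 to 1672 in the other 3 subclones (-0.72 ± 0.07 against these, adjusted p = 4.06e-05). Hsp90b1 read 984 and 1042, then 916 and 934, then 1124 to 1797 (-0.69 ± 0.06, adjusted p = 1.19e-05). Calr read 3215 and 3475, then 2895 and 2949, then 3420.1 to 5156 (-0.59 ± 0.05, adjusted p = 1.17e-05). In all 11 of 60 genes were lower and 3 higher in that contrast, beside 2.51% and 4.23% of all genes. Among the lower ones were also Pdia3 (-0.51), Pdia6 (-0.53) and Manf (-0.45). For each of these 6 genes every array of the other 3 subclones lay above both parental arrays, or for Calr above one of them. The count of 11 was 7 without FBB1.5 1 and 6 without FBB1.5 2.

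In glycolysis and hypoxia 3 of 49 genes passed downward against parental and 0 upward. Without FBB1.5 2 the count was 0, and it was 1 without parental 2, FBB1.11 1 or FBB1.11 2. Higd1a, a mitochondrial protein induced by low oxygen, fell from 2808 and 2946 to 2310.3 and 2087 (-0.39 ± 0.06, adjusted p = 0.00551). Ankrd37 went from 658 and 701 to 528 and 405, and Bhlhe40, a clock repressor, from 564 and 617 to 432 and 399. All 3 were lost without FBB1.5 2 (adjusted p up to 0.0785, 0.264 and 0.242), Ankrd37 and Bhlhe40 also without parental 2 and Bhlhe40 without FBB1.5 1. Enzymes of glycolysis did not pass against parental. Ldha, lactate dehydrogenase, read 8406 and 8646 against 8512 and 8438, and Pkm 5460.2 and 5268 against 5321 and 5085. Against the other 3 subclones 11 of the 49 were lower and 1 higher, beside 2.51% and 4.23% of all genes. The lower ones included Higd1a (-0.56), Pkm (-0.31), Ldha (-0.21) and Pgk1 (-0.18). The higher one was Ndrg1, at 792 and 633 in FBB1.5 against 342 to 593 (0.68 ± 0.11). It was not raised over parental cells. On the log2 scale its FBB1.5 arrays lay -0.11 and -0.42 from the parental mean, and the other subclones' arrays -0.51 to -1.28. Without FBB1.5 2 the count of 11 was 7.

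The core of the hypoxia response element, ACGTG on either strand, occurs in 19.6% of promoters of the table and in 37 of 66 promoters of the 46 genes of this list found there. Of the genes that passed against parental, Higd1a and Ankrd37 have it, and Bhlhe40 has no entry in the table. The promoter of Ankrd37 is shown because it holds 2 matches, both on its own strand and in capitals, at chr8:45999821-46000100 on the minus strand.
Ankrd37: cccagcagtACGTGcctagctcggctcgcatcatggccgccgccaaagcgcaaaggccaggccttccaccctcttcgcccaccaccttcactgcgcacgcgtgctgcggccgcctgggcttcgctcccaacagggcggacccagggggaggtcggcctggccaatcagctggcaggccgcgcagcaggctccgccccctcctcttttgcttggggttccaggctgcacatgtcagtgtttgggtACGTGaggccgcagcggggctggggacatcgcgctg
One match lies far upstream and the other just before the annotated start.

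Among antioxidant genes 2 of 47 passed upward against parental, Mgst3 as given above and Gstm5, a cytosolic glutathione transferase (1089 and 1052 to 1433 and 1314), the latter lost without parental 2 or either FBB1.5 array (up to 0.186). In the second contrast 7 were lower and 2 higher, and without either FBB1.5 array 4 were lower. Of all genes, 2.51% were lower and 4.23% higher in that contrast. After quantile normalization, or with arrays centred on the median, 7 antioxidant genes were lower and 0 higher. Hmox1, heme oxygenase, read 164 and 179 in parental cells, 143 and 143 in FBB1.5 and 190.0 to 517 in the other subclones (-1.09 ± 0.10, adjusted p = 2.1e-05). Gpx1 read 3273 and 3437, then 3250.4 and 3166, then 3693 to 5099 (-0.46 ± 0.04). In both genes FBB1.5 did not pass against parental (adjusted p = 0.422 and 0.627). Of oxidative phosphorylation, 2 of 80 genes passed upward (2.5%), beside 1.38% of all genes upward and 2.38% in either direction. They were the ATP synthase subunits Atp5b (4711 and 4482 to 5186 and 5516) and Atp5a1 (4378 and 4157 to 5131 and 5269.6). Both were lower than in the other 3 subclones (-0.18 and -0.20). Both calls were lost without parental 2 or either FBB1.5 array (up to 0.307 and 0.122).

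**Figure D4:**
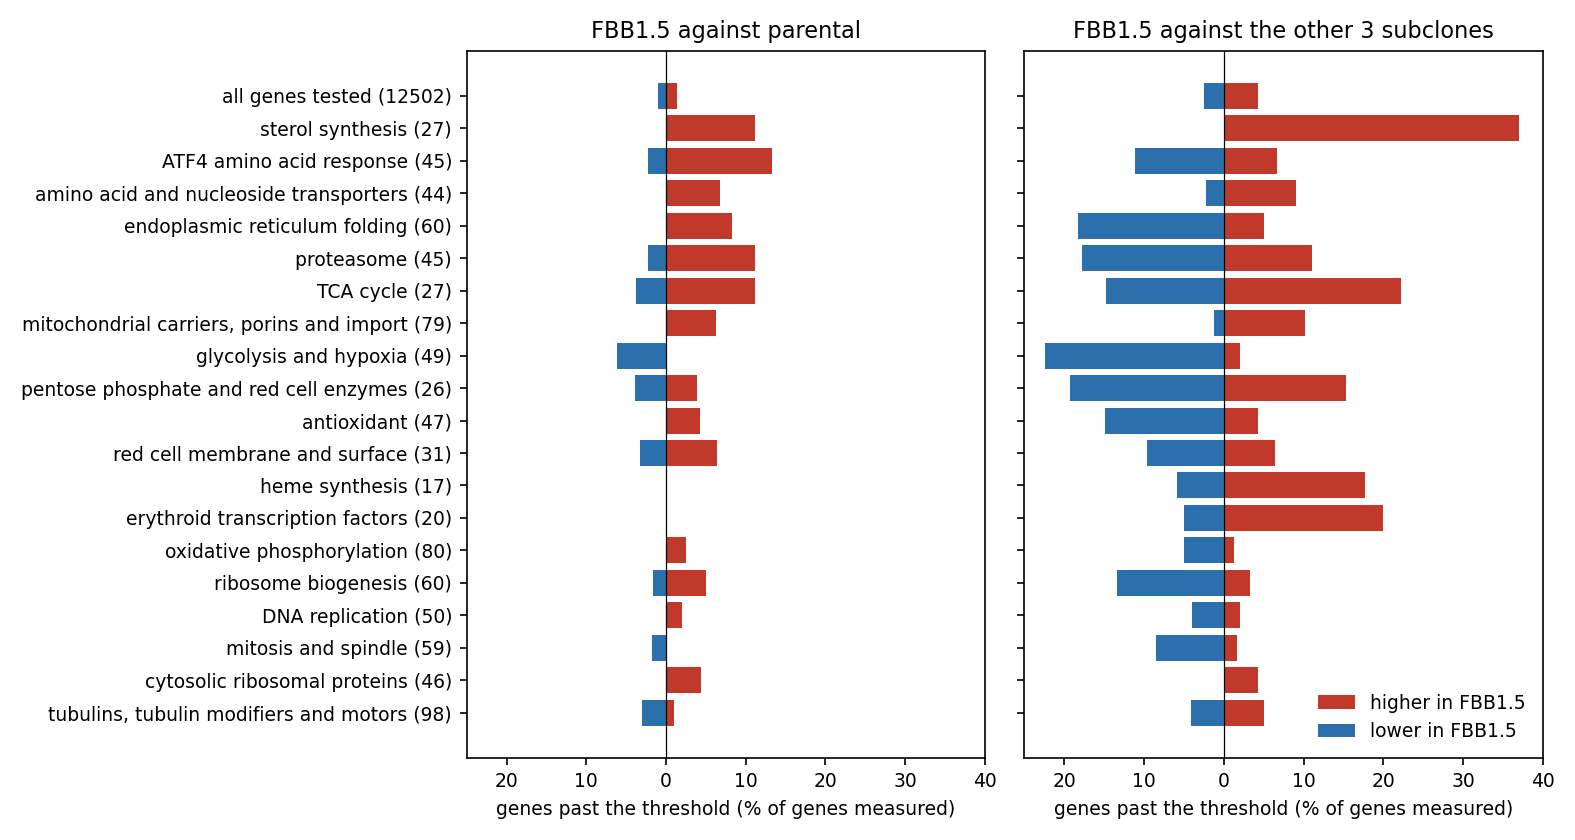
Percent of measured genes past the threshold in each list, higher (red, to the right) and lower (blue, to the left), in FBB1.5 against parental (left) and against the other 3 subclones (right). The number measured stands beside each name, and the top bar is all genes. Both panels use the same FBB1.5 arrays. Sterol synthesis reaches 10 of 27 genes on the right, and glycolysis, ER folding and the proteasome extend downward there.

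With the brightest probe set of each gene, the red cell programme gave no calls in 4 of its lists. Of 17 heme synthesis genes, 21 iron genes, 20 erythroid transcription factors and 19 regulators of globin switching, 0 passed against parental by limma, with medians of 0.09, 0.04, -0.13 and -0.08. At an unadjusted p under 0.05 they held 7, 5, 6 and 4 genes, beside 2010 of all 12502. Counting any tested probe set of a gene, 1 heme gene and 1 regulator of globin switching passed by limma. Klf1 read 1117 and 1199 against 1010.4 and 931 (adjusted p = 0.14), and Tfrc, the transferrin receptor, 2417 and 2730.3 against 2788 and 3458 (adjusted p = 0.168). Cpox, a heme synthesis enzyme, read 857 and 972 against 1129 and 1131 (adjusted p = 0.111). Relative to the other 3 subclones 3 of 17 heme genes were higher and 1 lower, beside 4.23% and 2.51% of all genes. The higher ones were Slc25a37, the mitochondrial iron importer, on chromosome 14 (0.81 ± 0.12), Hebp1 (0.64 ± 0.11) and Urod (0.35 ± 0.08). In the same contrast 3 iron genes were higher and 1 lower, and 4 erythroid transcription factors higher and 1 lower. Of the globin switching regulators, 1 was higher and 0 lower.

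Of 4 tested alpha-globin probe sets 2 passed upward, and beta-globin did not pass. The 2 alpha-globin probe sets that did not pass read 28.7 and 27.8 against 64.2 and 42.1 (adjusted p = 0.181) and 62.7 and 56.7 against 108 and 122 (adjusted p = 0.113). The brightest alpha-globin probe set, shared by Hba-a1 and Hba-a2, read 1952 and 2376 in parental cells and 2917 and 3373 in FBB1.5 (0.54 ± 0.10, adjusted p = 0.012), and its difference from the other 3 subclones was -0.00 (adjusted p = 0.996). The call was lost without FBB1.5 2 (adjusted p = 0.139). The beta-globin probe set shared by the adult genes read 865 and 975 against 1029 and 1029 (adjusted p = 0.426). Embryonic Hbb-y and Hbb-bh1 lay below the filter, and Hba-x, the embryonic alpha-like gene, read 49.1 and 44.3 against 47.9 and 43.4. Among 31 genes of the red cell membrane and surface, Dmtn, a cytoskeletal protein encoded on chromosome 14, went from 362 and 333 to 545 and 504, lost without FBB1.5 1 (0.0538), and Cd24a from 2437 and 2506 to 1986 and 1995, lost without parental 2 or either FBB1.5 array (up to 0.133). Epb42, a band protein of the red cell skeleton, was near background in parental cells, at 14.8 and 15.8, and read 45.7 and 47.5 in FBB1.5, at least 1.53-fold higher, a call lost without any 1 of the 4 arrays (up to 0.19). In bulk RNA, fewer cells of a type and less RNA per cell cannot be told apart.

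Mast cell genes gave 2 lower calls among 12. Srgn, the proteoglycan of secretory granules, went from 1414 and 1317 to 1034 and 801, lost without FBB1.5 2 (0.127). Mcpt4, a chymase encoded on chromosome 14, went from 54.6 and 48.9 to 12.4 and 25, at least 1.69-fold lower, lost without parental 1, parental 2 or FBB1.5 1 (up to 0.144). The neighbouring granule protease Cma1 read 324 and 263 in parental cells, 571 and 323 in FBB1.5 and 29.4 to 89.2 in the other 3 subclones, and so stood 2.77 ± 0.17 above the latter (adjusted p = 5.54e-07) without passing against parental (adjusted p = 0.234).

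Calls in the chromatin lists numbered 1 or 2 each, beside 2.38% of all genes. Of 17 NuRD genes 1 passed (5.88%), Chd3, a remodelling ATPase, which went from 345 and 352 to 225 and 186, a call gone without FBB1.5 2 (0.052). Of 25 SWI/SNF genes 2 passed upward (8%), Smarcd3 as above and Pbrm1 on chromosome 14 (405 and 486 to 610.4 and 599), lost without parental 1 or either FBB1.5 array (up to 0.157). Smarcd3 lies on chromosome 5, so 0 of the higher SWI/SNF genes lay outside chromosomes 14 and 5. Of 15 histone genes H2aj and H1f2 passed downward (13.3%). H1f2, a linker histone, went from 555 and 670.1 to 409 and 342, with the other 3 subclones lower still at 234 to 347, a call gone without parental 2 or FBB1.5 2 (up to 0.22).

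Growth and division genes were read against the same share of 2.38%. Of 59 mitosis genes 1 passed (Cdc25b, a phosphatase that activates CDK1, from 284 and 267 to 202 and 154), of 50 replication genes 1 (Wdhd1, on chromosome 14, from 171 and 193 to 278 and 262), and of 30 G1 cyclins, CDKs and their inhibitors 0 by limma (6 at an unadjusted p under 0.05). Counting any tested probe set of a gene, 1 of these 30 passed. Cdc25b was lost without parental 1 or FBB1.5 2, and Wdhd1 without any 1 array. Myc went from 448 and 480.4 to 651 and 643 (0.47 ± 0.10, adjusted p = 0.0268), a call lost without parental 1 or either FBB1.5 array (up to 0.119). Of 60 ribosome biogenesis genes 4 passed (6.67%), with 3 upward, all on chromosomes 14 and 5 (Gnl3, Lyar and Polr1d), and Rrp9 downward. Of 59 DNA repair genes 3 passed upward (5.08%). They were Apex1, the abasic site nuclease (426 and 479 to 690.5 and 651), Parp2 (229 and 224 to 312 and 313), both on chromosome 14, and Parp1 (499 and 469 to 641 and 632), and each lost its call without at least 3 of the 4 arrays. Eif5a, a translation factor, rose from 5403 and 5252 to 6481 and 7234 and held without each array, and the other 3 subclones read 6649 to 8836.

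Signalling and cytoskeletal lists had scattered calls. The share was 3.77% in the PI3K, AKT and mTOR list and 1.96% in the JAK-STAT list, beside 2.38% of all genes. Rheb, the 1 higher gene of the former list, lies on chromosome 5. Capg, a protein that caps actin filaments, went from 683 and 704 to 513 and 439.8 on both of its probe sets, lost without FBB1.5 2 (0.101). In the PI3K, AKT and mTOR list of 53 genes, Rheb rose and Inpp5d, the lipid phosphatase SHIP1, went from 579 and 576 to 451 and 359, lost without either parental array or FBB1.5 2 (up to 0.276). Of 51 JAK-STAT genes Jak1 alone passed, from 551 and 580.5 to 434 and 378, lost without parental 2 or FBB1.5 2 (up to 0.208). Itga6, an integrin chain, was at 19.1 and 15.3, below background, in parental cells and at 54.3 and 53.2 in FBB1.5, at least 1.76-fold higher, lost without parental 2 or either FBB1.5 array (up to 0.122). The other 3 subclones read 9.54 to 18.3. Kctd16, an adaptor of cullin ligases and GABA receptors, fell from 89.5 and 106 to 34.7 and 49.2 (-0.98 ± 0.15, adjusted p = 0.00411) and held without each array.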

How the data were processed

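The 10 arrays, 2 per line, were grouped by sample title and source name. The authors deposited 1 intensity per probe set and array, on a linear scale. Per the labels' protocols, oligo-dT primed cDNA was transcribed into biotinylated cRNA and stained with a streptavidin conjugate. Summarisation, background correction and scaling are not given in the sources used here. Gene names come from the platform annotation, with 34945 of 45101 probe sets bearing 1 symbol, 932 several and 9160 none, and 64 control probe sets left out. RefSeq entries (GRCm38.p6) were found for 34884 of those with 1 symbol and gave chromosomes and gene order.

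Tests covered probe sets above the table median, 30.5, on at least 2 of the 10 arrays. All 10 arrays entered a limma 3.58.1 fit (R 4.3.3) of 5 line means on log2(intensity + 16), with an intensity trend, 5 degrees of freedom among arrays plus 9.92 of prior, and Benjamini-Hochberg adjustment. A line left with 1 array is assumed to vary like the others. Each gene is its brightest probe set, and other probe sets of a called gene need not pass. Among others, Dusp7 and Inpp5d were called on 1 of 2 tested probe sets. Jak1, Cd24a, H1f2, Parp1 and Hadhb were called on 1 of 3. Folds are bounds where the dimmer line had an array at or below that median: mean log2 intensities are then compared with each dim array raised to it. With 2 arrays per line, the number of arrays limits the precision. The scripts were tested on simulated data. Figures used Python 3.11.15 and matplotlib 3.10.9.

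Genes were named by rule. The ranked ones were the 12 highest and 12 lowest passing genes outside chromosome 14 and the 4 highest of chromosome 14. The 6 highest and 6 lowest against the other 3 subclones were added. For these ranked genes the brighter line's mean had to reach 100. Named without that limit were the passing members of each of 64 lists up to 4 (or 2 bright members where none passed), Bcl11a and globins. Every member and list was chosen with earlier results of these data known. Members below the threshold, and those named for the other contrast alone, were chosen after their values were seen, as were the patterns of 2 lists (tRNA synthetases and proteasome), which were tightened after seeing which genes they caught. Alternatives covered the pseudocount (1 or 64), filters, scaling, variance model, arrays in the fit, actin ratio, chromosome 14 left out and a 1.5-fold minimum.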

Additional observations from a re-analysis of the deposited data

Results flagged for a closer look

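These genes differed from the other tagged subclones in their distance from the parental line. Each value is the log2 difference of FBB1.5 from the mean of FBB1.7, FBB1.10 and FBB1.11, which equals the difference of the subclones' effects against parental. The ranked genes outside chromosome 14 were kept here only where limma gave an adjusted p under 0.05 in this contrast. Some had been ranked by the same contrast, so passing it adds no support. Dusp7, Ncs1, Mgst3, Cog1, Zfp692, Bex4 and Plekhg4 did not pass and are left out. Higher in FBB1.5 were Cwh43 by 2.05, Smarcd3 by 1.1, Igfbp4 by 1.06, Spns2 by 0.96, Agtr1a and Gtf3c2 by 0.82, Pus7 by 0.60, Nxpe4 and Cst7 by 0.54 and Rheb by 0.50. Thy1 was lower, at -1.38, and Taldo1 at -1.0. Ttll4 and E330020D12Rik were at -0.94, Fbxl19 at -0.89, Tspan8 at -0.82 and Ahnak2 at -0.77. H2aj and Gkn3 were at -0.65, and Tmem38b at -0.48 (adjusted p = 0.0492). Cwh43, Smarcd3, Gtf3c2, Pus7 and Rheb lie on chromosome 5.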

How the results depend on the processing

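Each count of calls below is given beside its value in the report. The 507 probe sets against parental became 201 with no intensity filter, 22 with no intensity trend, 189 with the 4 arrays alone in the fit, 302 without chromosome 14 genes, 200 without chromosome 14 and 5 genes (a choice made after seeing the data) and 3 with a 1.5-fold minimum, and ranged from 184 to 810 with 1 array left out. The 1552 against the other 3 subclones became 971 with no filter, 705 with no trend and 999 without chromosomes 14 and 5, and 435 and 963 with 1 FBB1.5 array left out. The 109 list genes became 45 with no filter, 7 with no trend, 45 with 4 arrays, 68 without chromosome 14, 47 without chromosomes 14 and 5 and 1 with the fold minimum, and ranged from 36 to 128 with 1 array left out. The 82 higher genes of chromosome 14 became 48, 7, 41 and 1 under no filter, no trend, 4 arrays and the fold minimum, 41 without parental 2 and FBB1.5 1, and ranged from 35 to 64. No called gene reversed its direction in any of these settings. In all 297 both FBB1.5 arrays lay on one side of both parental arrays. Leaving out an array, or another pseudocount, filter or variance model, therefore could not reverse them, and this is no support there. Of 297 called genes 57 kept their call without each of the 4 arrays. The replicate numbers did not pair the samples (correlation of deviations -0.088), and with them as a replicate block 560 probe sets passed. With 2 arrays per line, differences near the threshold cannot be resolved.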
